A study of Mus musculus with 12 samples.

Results

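The Cyp4 fatty acid hydroxylases of mouse liver were followed in livers of Csa-deficient mice with and without severe disease. The set holds 9 genes of 57180 in the deposited gene table: Cyp4a10, Cyp4a14, Cyp4a31, Cyp4a32, Cyp4a12a, Cyp4a12b, Cyp4f14, Cyp4f15 and Cyp4v3. The rows were found by gene name, and all 9 passed the filter on low counts (5 reads or more, at the size of the median library, in 3 livers or more), as did 19350 genes in all. The study tested an adeno-associated virus vector, AAV9-CSA, against Cockayne syndrome, a disorder of transcription-coupled DNA repair. RNA was sequenced from 12 livers, 1 per mouse, in 4 groups of 3, which are the females and the males of the genotypes named Het and KO. Every mouse lacked Csa, which gene tables call Ercc8, and every mouse had been injected as a newborn into the brain ventricles with the vector, which carries human CSA behind the ubiquitous chicken β-actin promoter. Het mice were littermates of the genotype Csa-/- Xpa+/-, killed at matched age. KO mice were the CX mice, killed once they were hunched and trembling at the humane endpoint. Genotype and end-stage illness therefore cannot be told apart in the comparison of KO with Het. The methods and labels write the KO genotype with intact Xpa, while the study describes CX mice as lacking both genes, so livers were grouped by the names KO and Het. The age of single mice is not in the labels, and no untreated or wild-type liver was analysed here.

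Enzymes of the CYP4 family sit in the endoplasmic reticulum and hydroxylate fatty acids at the omega carbon, the end far from the carboxyl group. Alcohol and aldehyde dehydrogenases turn the product into a dicarboxylic acid, which peroxisomes then shorten. In rodent liver this route is known as a side path of fatty acid breakdown that gains weight in fasting. Cyp4a10 and Cyp4a14 are textbook targets of the nuclear receptor PPAR-alpha, Cyp4a12a is known for its higher level in males and for oxidation of arachidonic acid, and Cyp4f enzymes inactivate leukotrienes.

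The 6 Cyp4a members, all protein coding, lie in one cluster on chromosome 4 (GRCm39, GENCODE M39 annotation), which also holds the protein-coding genes Cyp4a29 and Cyp4a30b and several pseudogenes. In order along the chromosome the members are Cyp4a12a (115156243 to 115190012), Cyp4a12b (115268820 to 115296235), Cyp4a14 (115343397 to 115353344, minus strand), Cyp4a10 (115375461 to 115390849), Cyp4a31 (115420818 to 115436212) and Cyp4a32 (115458134 to 115479704). Cyp4f15 (32904421 to 32922640) and Cyp4f14 (33120541 to 33136561, minus strand) lie on chromosome 17, and Cyp4v3 (45757972 to 45786330, minus strand) lies on chromosome 8. The end of Cyp4a32 overlaps Cyp4b1 on the opposite strand, and Cyp4v3 overlaps the gene model Gm45753 on its own strand.

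Members of the Cyp4a cluster are close to identical in 2 sets, which bears on every value below, because Salmon shares out reads that match several genes. The coding sequences of Cyp4a12a and Cyp4a12b were 98.5% identical, with 23 mismatches over 1524 bases and one stretch of 342 bases without a difference. Cyp4a10 was 96.6% identical to Cyp4a31 and 97.9% identical to the shorter coding sequence of Cyp4a32 (1209 bases), and Cyp4a31 and Cyp4a32 were 96.5% identical. Cyp4a14 was 76.1% identical to Cyp4a10, and Cyp4f14 and Cyp4f15 were 82.1% identical to each other. The stretches of 90 coding bases below show where reads can tell the near-identical genes apart. Capitals mark the bases that differ within the set, 7 positions in the pair from coding exon 6 (chr4:115183856-115183945 for Cyp4a12a and chr4:115290109-115290198 for Cyp4a12b, plus strand, GRCm39).
Cyp4a12a: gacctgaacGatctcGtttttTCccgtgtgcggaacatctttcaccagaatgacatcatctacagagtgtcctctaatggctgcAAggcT
Cyp4a12b: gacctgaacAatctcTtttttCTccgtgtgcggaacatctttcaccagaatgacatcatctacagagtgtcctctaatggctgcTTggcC

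In the trio the stretch comes from coding exon 1 (chr4:115375591-115375680 for Cyp4a10, chr4:115420986-115421075 for Cyp4a31 and chr4:115458244-115458333 for Cyp4a32, plus strand, GRCm39). Here Cyp4a31 differed from Cyp4a10 at 7 positions and Cyp4a32 differed from it at 3.
Cyp4a10: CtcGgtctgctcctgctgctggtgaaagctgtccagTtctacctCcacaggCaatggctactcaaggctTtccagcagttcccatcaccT
Cyp4a31: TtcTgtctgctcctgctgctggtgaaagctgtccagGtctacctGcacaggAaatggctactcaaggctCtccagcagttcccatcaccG
Cyp4a32: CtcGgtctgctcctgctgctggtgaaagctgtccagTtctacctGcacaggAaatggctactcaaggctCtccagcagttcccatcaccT

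Upstream sequence was set beside these because Cyp4a10 and Cyp4a14 followed each other from liver to liver. The 250 bases before the transcript start are given for both, with the letters AGGTCA, the hexamer to which nuclear receptors bind, in capitals (chr4:115375211-115375460, plus strand, for Cyp4a10, and chr4:115353345-115353594, minus strand, for Cyp4a14, GRCm39).
Cyp4a10 upstream: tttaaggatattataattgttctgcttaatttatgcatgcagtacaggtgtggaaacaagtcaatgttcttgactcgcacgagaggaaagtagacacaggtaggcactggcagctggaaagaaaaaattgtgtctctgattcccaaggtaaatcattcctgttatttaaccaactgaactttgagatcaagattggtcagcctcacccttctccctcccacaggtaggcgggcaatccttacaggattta
Cyp4a14 upstream: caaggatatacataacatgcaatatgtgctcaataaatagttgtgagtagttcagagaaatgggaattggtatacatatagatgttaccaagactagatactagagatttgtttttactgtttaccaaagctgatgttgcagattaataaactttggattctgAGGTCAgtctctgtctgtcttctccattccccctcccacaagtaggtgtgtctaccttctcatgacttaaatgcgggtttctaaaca
Of the 9 members, Cyp4a14 alone held AGGTCA on either strand, starting 87 bases before the transcript start, and 13.1% of 21769 promoters of this length held it. The STAT-type palindrome TTCNNNGAA was also present in Cyp4a14 alone, and in 7.7% of all promoters. Neither a perfect nor a looser direct repeat of the hexamer with a single base between was found in any member, against 0.0367% and 0.349% of all promoters. These letters are a description of the window and not a binding site.

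Between 30044812 and 43634073 counts per liver fell on genes. Counts are given as CPM, counts per 1e+06 after scaling by the TMM method. The deposited TPM is a unit that corrects for gene length. In each liver 1 small RNA gene, Rn7s1, took 29.65% to 40.0% of it. Apart from the limma fits, TPM is therefore used to set genes beside each other, and its sums per liver are description. Differences are log2 fold changes from one edgeR quasi-likelihood fit over all 12 livers, and a gene was called at a Benjamini-Hochberg adjusted p under 0.05 over all 19350 genes. Xpa lay between 3.10 and 6.34 CPM in Het livers and between 0.992 and 1.83 CPM in KO livers, lower in KO in both sexes (adjusted p = 0.00733 in females and 0.000453 in males). Ercc8 lay between 5.10 and 8.68 CPM in Het livers and was at 14.8 CPM or more in each KO liver, higher in KO in both sexes (adjusted p = 0.00228 and 0.0128). The source of Ercc8 reads in mice that lack Csa was not tested, so these values do not show the amount of working Csa. Defining hepatocyte genes were abundant in each liver, with 63640 to 141900 CPM summed over 9 markers, of which Alb alone gave 35120 to 108600 CPM. Of 5 kidney tubule markers, 4 were too low to test. Over both sexes 11.8% of all genes tested were called higher and 9.8% lower. Of the 9 hepatocyte markers, 0 were called higher and 2 lower over both sexes. Of other cell markers, 4 of 7 for macrophages were called higher over both sexes (summed 92.0 to 254 CPM in Het and 135.7 to 422 CPM in KO), 2 of 6 for endothelium were called lower (161 to 304 CPM in Het and 126.2 to 223 CPM in KO) and 2 of 7 for stellate cells were called lower (221 to 417 CPM in Het and 116 to 231 CPM in KO). Their part in the results below was not tested, and in bulk liver fewer cells of a type and less RNA per cell cannot be told apart. Het_F_115 stood apart from the other Het livers in clock genes, which follow the time of day: Dbp was at 0.765 CPM against 81.1 to 112.2 CPM, Per3 at 1.74 against 44.7 to 77.5 CPM, and Bmal1 at 27.9 against 1.101 to 3.10 CPM. These 3 genes were named after their values were seen, the part of clock phase in the results was not tested, and calls lost without this liver are given beside them.

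Over both sexes, KO livers had less Cyp4a32, Cyp4f14 and Cyp4v3 and more Cyp4a31 than Het livers, while Cyp4a10 and Cyp4a14, the most abundant members, were not called in any comparison of all 12 livers. In males, Cyp4a12a and Cyp4a12b lay far below the Het level in each KO liver without passing the test, and in females Cyp4a12b was higher in KO. In females 1 member was called higher and 2 lower, where 5.15% and 4.5% of all genes tested were called higher and lower. Among males 0 members were called higher and 2 lower, against 4.11% and 2.8% of all genes. Over both sexes 1 member was called higher and 3 lower, against 11.8% and 9.8% of all genes. Read without a test, KO and Het livers did not overlap for 2 members that were higher and 3 that were lower in females (15.8% and 14.7% of all genes), and for 1 higher and 5 lower in males (16.8% and 15.4% of all genes).

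**Figure D1:**
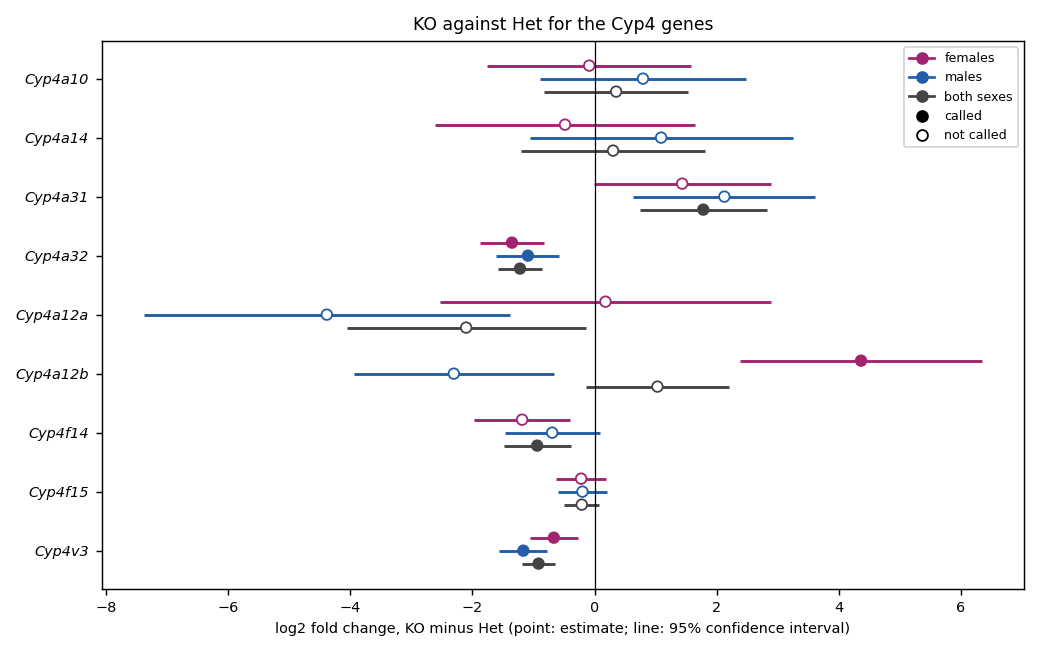
Log2 fold change of KO against Het for each of the 9 Cyp4 genes in females, in males and over both sexes (points, filled where called) with 95% confidence intervals (lines). Cyp4a32 and Cyp4v3 lie below 0 with narrow intervals in both sexes, and Cyp4a12b lies at 4.37 in females and at -2.30 in males.

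Per length, the family was led by Cyp4a14 and Cyp4a10. In Het females mean TPM was 453 ± 130 (SD, n = 3 here and below) for Cyp4a14 and 313 ± 48.7 for Cyp4a10, which overlapped, and both lay above the next member, Cyp4f14 (72.2 ± 17.5), in each liver. Cyp4f15 (61.5 ± 8.18) and Cyp4v3 (49.3 ± 7.87) followed, with neighbours overlapping, and the other 4 members were below 10 TPM on average. In Het males the order was less clear, since Cyp4a10 (170.2 ± 204), Cyp4a14 (124 ± 170), Cyp4a12a (111.7 ± 46.3) and Cyp4v3 (75.8 ± 12.8) overlapped from one to the next. In KO livers of both sexes Cyp4a10 and Cyp4a14 again led, with means between 272 and 318 TPM, and Cyp4a12a was below 6 TPM on average. Summed over the 9 genes, TPM was 839 to 1163 in Het females, 419 to 842 in KO females, 673 to 935 in KO males and 458, 466 and 1012 in Het males. The share of TPM taken by Rn7s1 ran from 29.65% in Het_F_115 to 39.97% in KO_M_122. These sums are not corrected for it, so differences between groups are not read from them. The Het male with 1012 TPM, Het_M_125, stood apart from both other Het males. Its Rn7s1 share was 34.81%, beside 36.31% in Het_M_119 and 35.44% in Het_M_137.

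**Figure D2:**
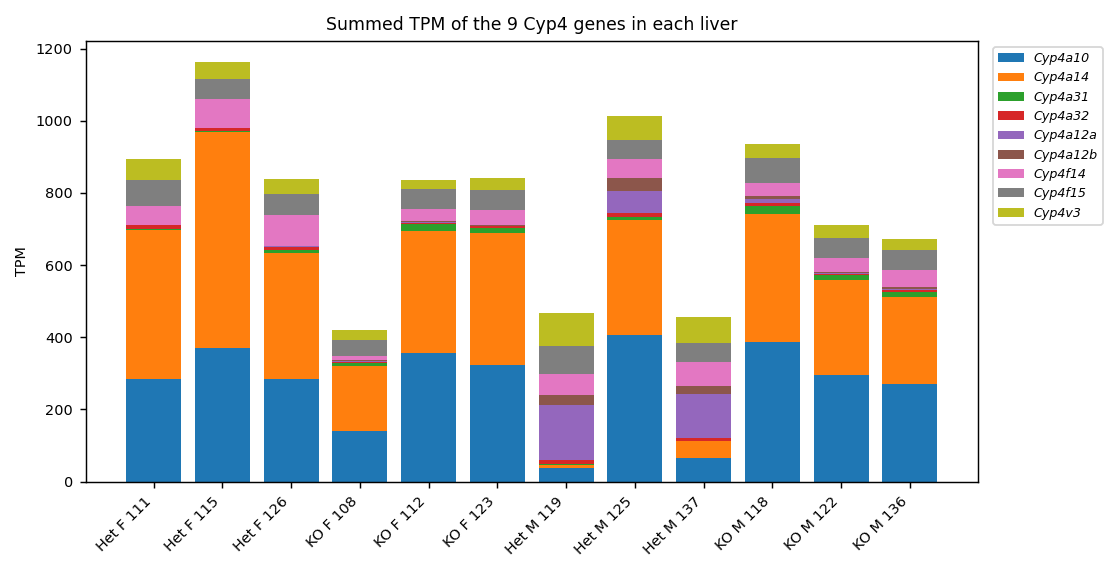
Deposited TPM of the 9 Cyp4 genes stacked for each liver (bars), with livers in the order Het females, KO females, Het males and KO males. Bar heights are not corrected for the share of Rn7s1, which differs between livers. Cyp4a10 and Cyp4a14 fill most of each bar except in Het_M_119 and Het_M_137, where Cyp4a12a is the tallest segment.

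Cyp4a14 was measured at 1200.0, 1747 and 1076 CPM in Het_F_111, Het_F_115 and Het_F_126, and at 520.5, 1191 and 1165 CPM in KO_F_108, KO_F_112 and KO_F_123. Among males it was at 28.3, 1132 and 147 CPM in Het_M_119, Het_M_125 and Het_M_137, and at 1159, 880.1 and 747 CPM in KO_M_118, KO_M_122 and KO_M_136. The groups overlapped in both sexes. KO_F_108 stood below the other females, and Het_M_125 stood far above the other Het males and within the KO male range. The log2 fold change was -0.48 ± 0.96 (SE) in females (95% confidence interval -2.62 to 1.65, adjusted p = 0.784) and 1.09 ± 0.96 in males (-1.06 to 3.25, adjusted p = 0.547). Without Het_M_125 the difference was called, at 3.40 in males (adjusted p = 0.0345) and 1.45 over both sexes (adjusted p = 0.0409), and so was that of Het males against Het females (-3.96, adjusted p = 0.0427). With livers left out in turn, KO against Het ranged from 0.52 to 3.40 in males and from 0.011 to 1.45 over both sexes. The lowest values were those without Het_M_119, and no other liver left out gave a call.

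Cyp4a10, its neighbour and also a PPAR-alpha target, varied much like it from liver to liver. Het females had 719.6, 931 and 733 CPM and KO females 338, 1051 and 856 CPM. Het males had 117.6, 1214 and 183 CPM and KO males 1056, 835 and 735 CPM. KO_F_108 and Het_M_119 and Het_M_137 were again the low livers, and groups overlapped in both sexes. Het_M_125 was here above each KO male. The log2 fold change was -0.09 ± 0.75 in females (-1.75 to 1.58, adjusted p = 0.956) and 0.79 ± 0.75 in males (-0.89 to 2.47, adjusted p = 0.58), and without Het_M_125 it was 2.54 in males (adjusted p = 0.0168) and 1.22 over both sexes (adjusted p = 0.0153), with -2.42 for Het males against Het females (adjusted p = 0.0376). Leaving livers out in turn gave 0.31 to 2.54 for KO against Het in males and 0.10 to 1.22 over both sexes. Again the lowest values were those without Het_M_119, and no other liver left out gave a call. Over the 12 livers log2 CPM of Cyp4a10 and Cyp4a14 had a Pearson correlation of 0.94, which describes these livers and includes the group differences. The genes outside the family most like Cyp4a14 in this measure were Rom1 (0.95), Abcd2 (0.93) and Maoa (0.91). Abcd2, a peroxisomal transporter of very long chain fatty acids, was called higher in KO males (2.59, adjusted p = 0.0473) and not in KO females (-0.91, adjusted p = 0.383).

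**Figure D3:**
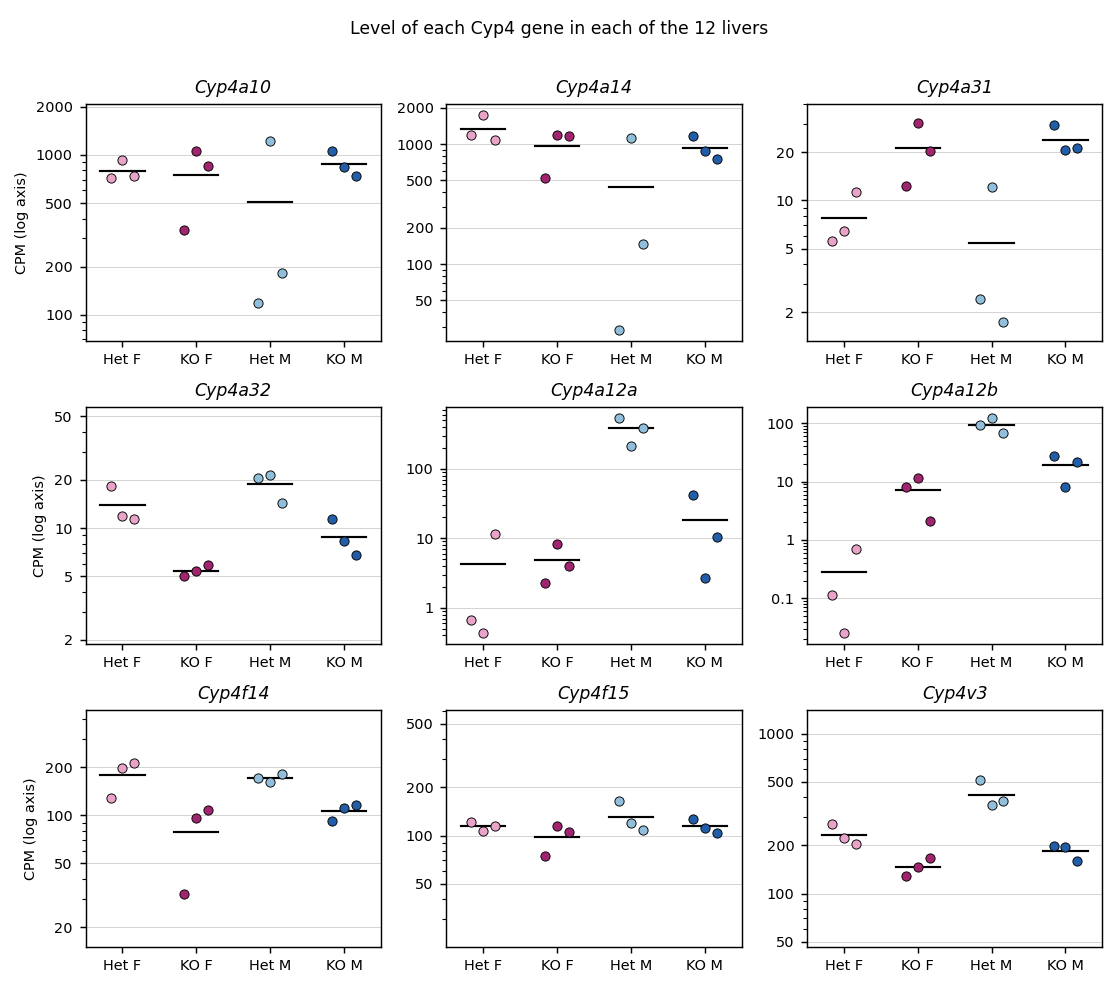
CPM of each Cyp4 gene in each of the 12 livers (points, log axis) by group, with the group mean (bars). Cyp4a10 and Cyp4a14 spread widely within Het males, from 117.6 to 1214 and from 28.3 to 1132 CPM, whereas Cyp4v3 separates KO from Het in both sexes.

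Cyp4a31, a close relative of Cyp4a10, was a minor gene that was higher in each KO liver. Het females had 5.58, 6.45 and 11.3 CPM and KO females 12.4, 30.7 and 20.5 CPM. Het males had 2.40, 12.2 and 1.73 CPM and KO males 29.7, 20.7 and 21.4 CPM. The groups did not overlap in either sex, with Het_F_126 and Het_M_125 closest to the KO range. It rose by 1.78 ± 0.47 on the log2 scale over both sexes (adjusted p = 0.0238), and was not called in females (1.44 ± 0.65, adjusted p = 0.181) or in males (2.13 ± 0.67, adjusted p = 0.0907). The call over both sexes was lost without Het_F_111 (1.67, adjusted p = 0.0554), Het_F_115 (1.71, adjusted p = 0.0546) or KO_M_118 (1.67, adjusted p = 0.0532), while without Het_M_125 the difference was 2.46 (adjusted p = 8.79e-04) and that in males was called, at 3.498 (adjusted p = 0.00433). The call over both sexes was also lost without the filter on low counts (1.78, adjusted p = 0.0628), and the male difference was called by DESeq2 (2.12, adjusted p = 0.00534) and both limma fits (adjusted p = 0.0283 and 0.0407).

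Cyp4a32, the third of the trio, went the other way. Het females had 18.4, 11.8 and 11.5 CPM and KO females 5.02, 5.36 and 5.84 CPM, so that all 3 KO females lay within 1 CPM of each other and below each Het female. Het males had 20.6, 21.5 and 14.4 CPM and KO males 11.3, 8.28 and 6.76 CPM, again without overlap. It fell by 1.35 ± 0.24 on the log2 scale in females (adjusted p = 0.00872), by 1.09 ± 0.24 in males (adjusted p = 0.0195) and by 1.22 ± 0.17 over both sexes (adjusted p = 7.62e-04). No single liver carried the female call or that over both sexes. The male call was lost without Het_M_119 (-1.03, adjusted p = 0.0627), Het_M_125 (-0.99, adjusted p = 0.0785), KO_M_122 (-1.05, adjusted p = 0.0602) or KO_M_136 (-0.94, adjusted p = 0.0709).

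Both minor genes are a small part of the reads shared out over the trio. Cyp4a31 made up 0.680% to 1.70% of the trio's estimated counts in Het livers and 2.32% to 3.47% in KO livers, without overlap. Cyp4a32 made up 1.25% to 14.6% in Het livers and 0.493% to 1.41% in KO livers, and its share was highest in Het_M_119 and Het_M_137, where Cyp4a10 was low. When the counts of the trio were summed before the fit, nothing was called, with -0.075 ± 0.71 in females (adjusted p = 0.96) and 0.78 ± 0.72 in males (adjusted p = 0.567). The sum follows Cyp4a10, so the calls on Cyp4a31 and Cyp4a32 depend on how Salmon divided the reads, and whether that division was accurate was not tested.

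Cyp4a12a, a male-biased hydroxylase of fatty acids and arachidonic acid, was low in KO males. Het_M_119, Het_M_125 and Het_M_137 had 539, 212 and 390.4 CPM, and KO_M_118, KO_M_122 and KO_M_136 had 41.3, 2.65 and 10.4 CPM. Each KO male lay below each Het male, with a ratio of group means of 21.0, and KO_M_122 and KO_M_136 were in the range of females. The fitted log2 fold change was -4.38 ± 1.34 (95% confidence interval -7.38 to -1.38), which was not called (adjusted p = 0.0849). It was called by DESeq2 (-4.40, adjusted p = 0.00423) and by limma on log2(TPM + 1) (-4.46, adjusted p = 0.00842) and log2(TPM + 0.1) (-4.92, adjusted p = 0.0422). Without Het_F_126, which is in neither group but shares the estimate of spread, the same difference was -4.39 with an adjusted p of 0.0305. No other liver left out gave a call, and the male difference ranged from -5.86 to -3.87 with adjusted p up to 0.21. With only the 2 male groups it was not called. In females the groups overlapped, with 0.676, 0.434 and 11.6 CPM in Het_F_111, Het_F_115 and Het_F_126 and 2.26, 8.39 and 3.94 CPM in KO_F_108, KO_F_112 and KO_F_123. The female log2 fold change was 0.18 ± 1.21 (adjusted p = 0.943), and it ranged from -0.45 to 2.99 when livers were left out in turn, the highest value being that without Het_F_126.

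Cyp4a12b, its near copy, was the member whose KO and Het livers did not overlap in either sex while the difference ran in opposite directions. Het females had 0.113, 0.0255 and 0.713 CPM, which were 4.3, 1.3 and 33.4 estimated counts, and KO females had 8.18, 11.7 and 2.09 CPM. Each KO female was above each Het female, and Cyp4a12b rose by 4.37 ± 0.89 on the log2 scale (95% confidence interval 2.38 to 6.35, adjusted p = 0.0198). This fitted value rests on a few counts per Het female and so depends on the prior count of 2. The call was lost without Het_F_111 (4.06, adjusted p = 0.0599), Het_F_115 (3.90, adjusted p = 0.0502), KO_F_108 (4.26, adjusted p = 0.0573) or KO_F_112 (3.86, adjusted p = 0.0501), and the value was 5.87 without Het_F_126.

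In males Cyp4a12b was at 94.5, 123.3 and 67.0 CPM in Het livers and at 27.9, 8.07 and 21.5 CPM in KO livers. Each KO male was below each Het male, but the log2 fold change of -2.30 ± 0.73 was not called (adjusted p = 0.0948). It was called by limma on log2(TPM + 1) (-2.13, adjusted p = 0.0144) and by edgeR with only the 2 male groups (-2.31, adjusted p = 0.047). The interaction of genotype and sex, the male difference minus the female one, was -6.67 ± 1.15 for Cyp4a12b (adjusted p = 0.109) and -4.56 ± 1.76 for Cyp4a12a (adjusted p = 0.515). No member was called for this interaction, where 0.0465% of all genes were. In the edgeR fit 2 members had an unadjusted p under 0.05, Cyp4a12b (0.000192) and Cyp4a12a (0.0274), and DESeq2 called Cyp4a12b (-7.00, adjusted p = 4.72e-05). Without KO_F_123 the edgeR interaction of Cyp4a12b was -7.11 (adjusted p = 0.0312).

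Counted together, which removes the question of how reads were divided, Cyp4a12a and Cyp4a12b gave 634, 336 and 457 CPM in Het males and 69.2, 10.7 and 31.9 CPM in KO males. In females the sum was 0.789, 0.459 and 12.3 CPM in Het livers and 10.4, 20.1 and 6.03 CPM in KO livers. KO and Het did not overlap in males and did so in females through Het_F_126. The summed log2 fold change was -3.67 ± 1.16 in males (adjusted p = 0.0922) and 1.40 ± 1.08 in females (adjusted p = 0.435), so the female call on Cyp4a12b was not kept by the sum. In males the sum was called by DESeq2 (-3.68, adjusted p = 0.00844), by limma on log2(TPM + 1) (-3.72, adjusted p = 0.0119) and with only the 2 male groups (-3.67, adjusted p = 0.0428). Without Het_F_126 the summed female difference was 4.16 (adjusted p = 0.0389) and the male one -3.68 (adjusted p = 0.0184). Of the summed counts, Cyp4a12b took 5.86% to 15.3% in Het females and 14.6% to 36.7% in Het males. It took 34.6% to 78.5% in KO females and 40.3% to 75.3% in KO males, above the Het range of the same sex. Het_M_125 had the highest Cyp4a12b share of the Het livers as well as the high Cyp4a10 and Cyp4a14 levels.

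**Figure D4:**
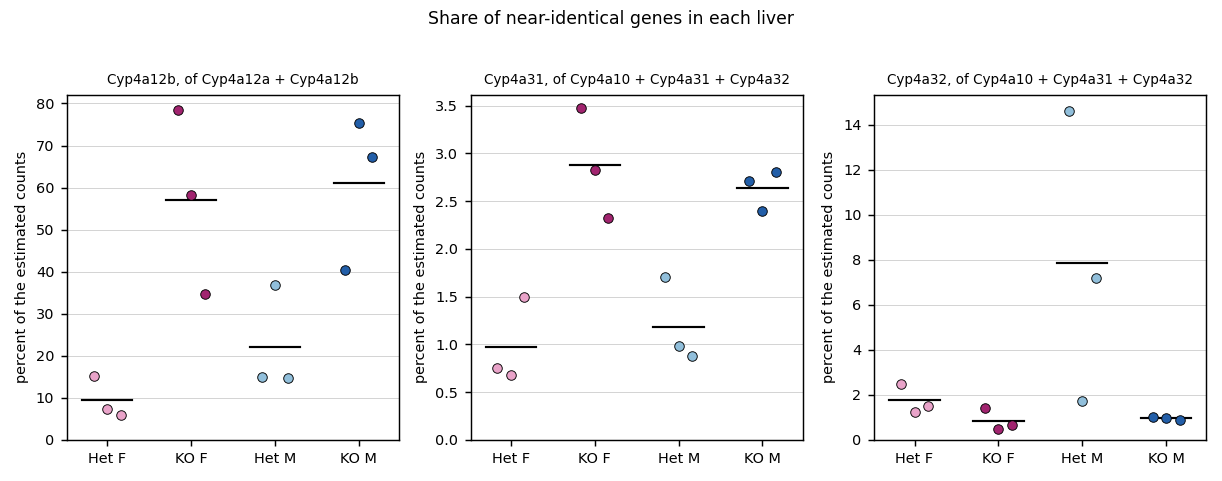
Percent of the estimated counts of a near-identical set that were assigned to Cyp4a12b (left), Cyp4a31 (middle) and Cyp4a32 (right), by liver (points) and group (bars show the mean). Cyp4a12b takes 5.86% to 36.7% in Het livers and 34.6% to 78.5% in KO livers, and the Cyp4a31 share does not overlap between KO and Het.

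Cyp4f14, which omega-hydroxylates leukotriene B4 and other eicosanoids, was lower in each KO liver. Het females had 128, 199 and 212 CPM and KO females a mean of 79.0 ± 40.8 CPM (SD, n = 3), with 32.3 CPM in KO_F_108 and 96.7 CPM in KO_F_112. Het males had 172, 161 and 182 CPM and KO males 92.5, 110.6 and 116 CPM. Groups did not overlap in either sex, and KO_F_108 was the lowest liver. It fell by 0.94 ± 0.25 on the log2 scale over both sexes (adjusted p = 0.0224), a call that was lost without KO_M_118 (-0.91, adjusted p = 0.0515) and without the filter on low counts (-0.94, adjusted p = 0.0532). It was not called in females (-1.19 ± 0.36, adjusted p = 0.0576) or in males (-0.69 ± 0.35, adjusted p = 0.266). In females it was called without KO_F_108 (-0.83, adjusted p = 0.0471), without KO_F_123 (-1.49, adjusted p = 0.0318), with scaling by library size only (-1.28, adjusted p = 0.044), by DESeq2 (-1.18, adjusted p = 0.0105) and by both limma fits (adjusted p = 0.0255 and 0.027). In males it was called without KO_F_108 (-0.70, adjusted p = 0.0314) and with only the 2 male groups (-0.70, adjusted p = 0.0132). The genes most like it over the 12 livers were Fndc4 (Pearson correlation 0.98), Gm15369 (0.97) and the sulfate transporter gene Slc26a1 (0.97).

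Cyp4f15, its neighbour on chromosome 17, was not called in any comparison. Het females had 122.5, 106 and 114 CPM and KO females 74.8, 115.2 and 105 CPM, with overlap. Het males had 164, 119.9 and 109 CPM and KO males 127, 111.9 and 104 CPM, with overlap. The log2 fold change was -0.22 ± 0.19 in females (95% confidence interval -0.63 to 0.19, adjusted p = 0.481) and -0.20 ± 0.19 in males (-0.61 to 0.21, adjusted p = 0.574), intervals that leave out a 2-fold change in either direction.

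Cyp4v3, the mouse counterpart of human CYP4V2, a hydroxylase of medium-chain fatty acids mutated in Bietti crystalline dystrophy, was lower in KO livers of both sexes. Het females had 274, 222 and 205 CPM and KO females 128, 146 and 167 CPM, without overlap. Het males had 510.5, 358 and 381 CPM and KO males 199, 197 and 161 CPM, without overlap and with narrow spread. It fell by 0.67 ± 0.18 on the log2 scale in females (adjusted p = 0.0389), by 1.17 ± 0.18 in males (adjusted p = 0.00408) and by 0.92 ± 0.13 over both sexes (adjusted p = 7.85e-04). The calls in males and over both sexes held whichever liver was left out. That in females was lost in 7 of the 12 fits that left out 1 liver, with adjusted p between 0.0294 and 0.113 over the 12, the highest without KO_F_108 (-0.59), and it was 0.0639 without Het_F_115 (-0.71).

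The difference of Cyp4v3 between the sexes was not called in either genotype, at 0.83 ± 0.18 for males minus females in Het livers (adjusted p = 0.0629) and 0.33 ± 0.18 in KO livers (adjusted p = 0.478). Each Het male lay above each Het female. The Het difference was called by DESeq2 (0.84, adjusted p = 0.00115), without the filter on low counts (0.82, adjusted p = 0.0351) and without KO_F_108 (0.82, adjusted p = 0.0488). The profile of Cyp4v3 was most like those of Mup12 (Pearson correlation 0.98), Serpina12 (0.98) and Mup11 (0.97), and Mup11, a urinary protein gene, averaged 1430 CPM in Het males and 16.2 CPM in KO males. Within the family, Cyp4v3 was closest to Cyp4a32 (0.91).

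Sex differences of the family were then read within each genotype. In Het livers 1 member was called between males and females, Cyp4a12b, where 0.811% of all genes were called in either direction. It was higher in Het males by 8.06 ± 0.99 on the log2 scale (adjusted p = 0.0048), with means of 94.95 CPM in males and 0.284 CPM in females. Cyp4a12a was higher by 6.45 ± 1.48 without a call (adjusted p = 0.105), and was called without Het_F_126 (9.27, adjusted p = 0.025). On all livers it was called by DESeq2 (6.5, adjusted p = 8.74e-06) and by both limma fits (adjusted p = 0.00376 and 0.0206). The sum of the pair stood at 6.68 ± 1.34 (adjusted p = 0.0641). That sum was called by DESeq2 (6.73, adjusted p = 7.33e-08) and by both limma fits (adjusted p = 0.00114 and 0.00828). With 10 reads or more in every liver it was also called (6.67, adjusted p = 0.0439). In KO livers 0 members were called between the sexes, where 0.0568% of all genes were, and Cyp4a32 alone had an unadjusted p under 0.05 (0.70 ± 0.24, adjusted p = 0.309). The male minus female difference there was 1.39 ± 0.72 for Cyp4a12b and 1.89 ± 1.23 for Cyp4a12a, with overlap for both. The genes most like Cyp4a12a over the 12 livers were Gm39469 (0.94), 4930481B07Rik (0.93) and Cyp2d9 (0.93), the last a male-biased steroid hydroxylase called lower in KO males (-3.03, adjusted p = 0.0144).

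Genes known for sex bias in liver gave a setting for these values. Of 9 male-biased genes, 7 were called lower and 0 higher in KO males, with a median log2 fold change of -3.63, against 0.019 over all genes in males. In KO females 4 of the 9 were called lower and 0 higher, with a median of -1.53, and 0 were called for the interaction. Of 16 female-biased genes, 10 were called higher and 0 lower in KO males, with a median of 6.34. In KO females 1 of the 16 was called higher and 1 lower, with a median of 0.859. For the interaction 4 of the 16 were called, where 0.0465% of all genes were. Het_F_126, the Het female with the most Cyp4a12a, had 417 CPM summed over the 9 male-biased genes, above the other Het females (138 and 183 CPM) and far below Het males (7108 to 7833 CPM). By the naming rule, examples were Cyp2u1, a fatty acid hydroxylase gene (-3.93, adjusted p = 9.73e-06 in males), Hsd3b5 (-8.35, adjusted p = 0.0012), the steroid hydroxylase gene Cyp7b1 (-2.92, adjusted p = 9.83e-04 in males) and the fatty acid elongase gene Elovl3 (-5.65, adjusted p = 0.00139), and on the female side Cux2 (5.65, adjusted p = 8.33e-04), Slc22a26 (6.20, adjusted p = 7.74e-04) and Cyp2a4 (9.98, adjusted p = 3.12e-06).

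The regulators of the family were read next. Ppara, the receptor that drives Cyp4a10 and Cyp4a14, was at 241, 129 and 219 CPM in Het females and at 59.97, 93.1 and 53.1 CPM in KO females, and at 214, 237 and 197 CPM in Het males and 125.1, 54.4 and 98.0 CPM in KO males. It was lower in each KO liver than in each Het liver of the same sex, and fell by 1.51 in females (adjusted p = 0.0187) and by 1.22 in males (adjusted p = 0.0423) on the log2 scale. Of 19 receptors, coactivators and sex-linked regulators, 4 were called higher and 6 lower over both sexes (median -0.09). Over both sexes Cux2, a transcription factor of the female liver program, rose by 3.503 (adjusted p = 3.38e-04). Esr1, the estrogen receptor, rose by 0.93 (adjusted p = 0.00205). Both were called in males, at 5.65 (adjusted p = 8.33e-04) and 1.55 (adjusted p = 0.0023). Neither was called in females, at 1.355 (adjusted p = 0.0905) and 0.30 (adjusted p = 0.397), or for the interaction (adjusted p = 0.0924 and 0.269). Nr1h4, the bile acid receptor FXR, fell by 1.03 over both sexes (adjusted p = 0.00146). It was called lower in females (adjusted p = 0.012) and in males (adjusted p = 0.036).

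Of 36 known target genes of PPAR-alpha, members excluded, 19 were called lower and 1 higher over both sexes, with a median log2 fold change of -0.60 against 0.0178 over all genes tested. In females 16 were called lower and 0 higher, and in males 1 lower and 0 higher, but 0 were called for the interaction. The female count is not firm, since it was 1 without Het_F_111, 3 without Het_F_115 or KO_F_108, 4 without KO_F_112 and 9 without Het_F_126 or KO_M_118. The male count was 9 without KO_F_108, 3 without Het_F_115, 2 without Het_F_126 or KO_F_123, and 0 without Het_M_119, Het_M_125, KO_M_122 or KO_M_136. Over both sexes no liver left out moved the counts by more than 1.5 times. By the naming rule, examples over both sexes were the lipid droplet gene Plin2 (-1.59, adjusted p = 0.00425), the mitochondrial oxidation gene Hadhb (-0.75, adjusted p = 0.00489) and Creb3l3 (-1.02, adjusted p = 0.00505). Cyp4a10 (0.35 ± 0.53) and Cyp4a14 (0.30 ± 0.67) over both sexes were not called, with intervals of -0.83 to 1.54 and -1.20 to 1.81 that also span the median of that list.

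Steps before and after omega-hydroxylation were covered by a list of 23 genes, and some of these, such as Ehhadh, Acaa1a, Acaa1b and Acot4, also stand in the former list. Over both sexes 13 were called lower and 2 higher (median -0.66). In females 12 were called lower and 2 higher (median -0.80), in males 5 lower and 1 higher (median -0.35), and 0 for the interaction. The next values are over both sexes. Scp2, a peroxisomal thiolase and sterol carrier, fell by 1.14 (adjusted p = 5.88e-04), Acsl1, which activates long-chain fatty acids, fell by 1.54 (adjusted p = 6.17e-04), and Abcd3, a peroxisomal importer of dicarboxylic acids, fell by 1.15 (adjusted p = 9.12e-04). Those called higher were the alcohol dehydrogenase gene Adh7, which rose by 1.502 (adjusted p = 0.00154), and Por, the reductase that passes electrons to microsomal P450 enzymes, which rose by 0.93 (adjusted p = 0.0168). In males neither was called (adjusted p = 0.0748 for Adh7 and 0.26 for Por). Por was named after its values were seen.

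**Figure D5:**
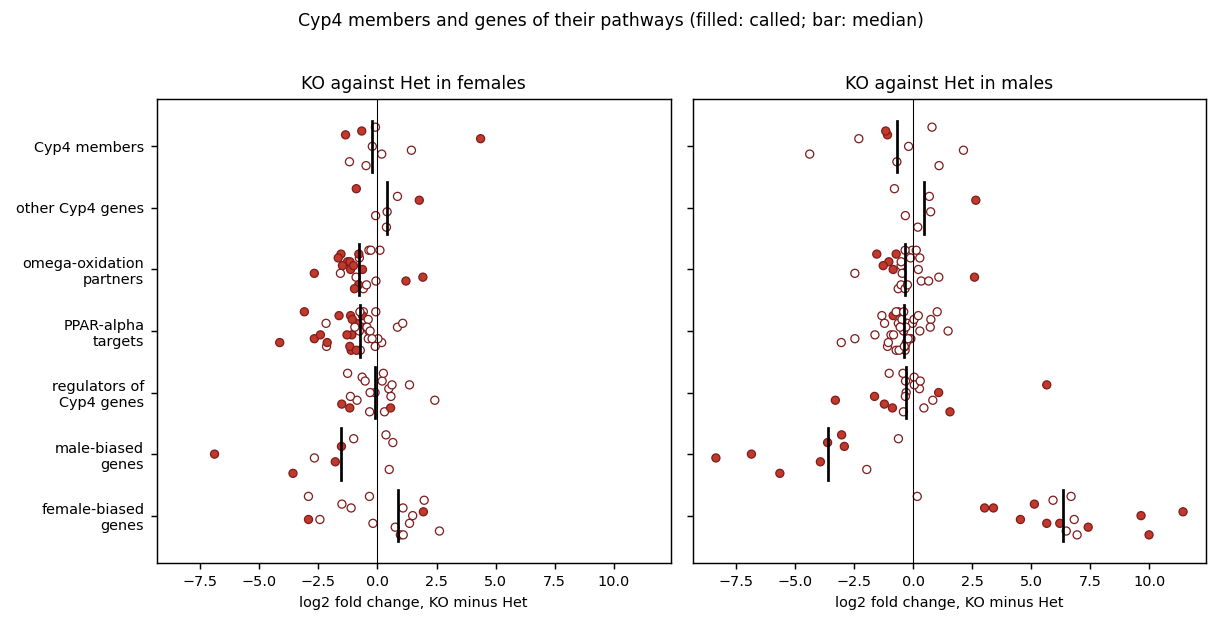
Log2 fold change of KO against Het in females (left) and males (right) for the 9 Cyp4 members and for each tested gene of 6 lists (points, filled where called; vertical bars show the median of a list). PPAR-alpha targets lie mostly below 0, with medians of -0.76 and -0.41, and the Cyp4 members spread on both sides of 0.

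Of 12 other Cyp4 genes, 6 passed the filter. Cyp4f16 rose by 2.21 on the log2 scale over both sexes (adjusted p = 1.37e-05), from means of 2.32 CPM in Het females and 1.21 CPM in Het males to 8.04 and 7.90 CPM in KO. Cyp4b1, which overlaps Cyp4a32 on the opposite strand, fell by 0.85 (adjusted p = 0.00629), from means of 12.0 and 11.1 CPM to 6.40 and 6.35 CPM. The library kit keeps strand, and how far reads of the 2 overlapping genes were kept apart was not tested. Cyp4f13, the most abundant of these genes (55.8 CPM in Het males), was not called (-0.21, adjusted p = 0.117), nor were Cyp4f17 (0.29), Cyp4f18 (0.57) and Cyp4f39 (0.76). Of the clock genes, among which Het_F_115 stood apart within its group, 1 of 15 was called higher (Cry2, 1.27, adjusted p = 0.0116) and 1 was called lower (Hlf, -0.87, adjusted p = 0.00723) over both sexes.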

How the data were processed

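RNA from 12 livers was sequenced as stranded, ribosome-depleted total RNA. Per the labels and the study's methods, the authors ran the nf-core/rnaseq pipeline with STAR 2.7.9a and Salmon 1.10.1 on GRCm39 and deposited a table of estimated counts per gene, in which Salmon shares out reads that fit several genes (12% of values are not whole). The deposited TPM table was made by the authors in the same run and is corrected for length and library. Here estimated counts were filtered (5 reads or more in 3 livers or more at the median library size), rounded, scaled by TMM and fitted with edgeR 4.0.16 in R 4.3.3 (quasi-likelihood test, prior count 2, 4 groups in one fit without covariates, Benjamini-Hochberg adjustment over 19350 genes). All p-values in the text are from this test unless another tool is named. They rest on 3 mice a group, with the spread of a gene estimated from all groups in the fit together and drawn toward that of other genes. Depth was 30044812 to 43634073 counts per liver. Named genes were the members, the check genes Xpa and Ercc8, up to 4 called genes with the smallest p over both sexes in each list, Ppara, the other Cyp4 genes tested, and the 3 genes most correlated with each of Cyp4a14, Cyp4a12a, Cyp4f14 and Cyp4v3. Some genes that this rule names are not reported here. The members and lists were chosen with earlier results of these data known. Alternatives were DESeq2 1.42.0, limma 3.58.1 on log2(TPM + 1) and log2(TPM + 0.1), other filters and scalings, only the 2 groups compared, near-identical genes summed, and each liver left out. The steps were also tested on simulated data with the same spread for all genes and no outlying liver. That test does not cover members with livers that stand apart, such as Cyp4a14. Sequences and positions come from GRCm39 with the GENCODE annotation.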

Additional observations from a re-analysis of the deposited data

Results flagged for a closer look

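Cyp4a12b stood out because its KO and Het livers did not overlap in either sex and the sexes differed in direction, so that each KO female was above each Het female and each KO male was below each Het male. The interaction of genotype and sex was -6.67 on the log2 scale (edgeR quasi-likelihood test, adjusted p = 0.109), so the difference between the sexes did not pass the test over all genes. The sum of Cyp4a12a and Cyp4a12b gave -5.07 (adjusted p = 0.457). In females KO and Het livers overlapped for that sum, through Het_F_126 (12.3 CPM, against 6.03 to 20.1 CPM in KO females). The Het female level of Cyp4a12b rests on 4.3, 1.3 and 33.4 estimated counts. Of all genes tested, 15.8% were higher without overlap in KO females and 15.4% were lower without overlap in KO males. The share that did both is not given here.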

How the results depend on the processing

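The number of members called for KO against Het in females was 3, and it was 1 with only the 2 groups of the comparison and 1 to 4 when livers were left out in turn (1 without Het_F_111, Het_F_115 or KO_F_112). In males it was 2, and it was 4 with DESeq2, 5 with limma on log2(TPM + 1), 4 with limma on log2(TPM + 0.1), 4 with only the 2 groups, and 1 to 4 with livers left out (1 without Het_M_119, KO_M_122 or KO_M_136, and 4 without Het_M_125). Over both sexes it was 4, with 2 without the filter on low counts (Cyp4a31 and Cyp4f14 were lost) and 2 to 6 with livers left out (2 without KO_M_118 and 6 without Het_M_125). Between the sexes in Het livers it was 1, with 2 without the filter, 0 with 10 reads or more in every liver, 3 with DESeq2, 2 with each limma fit and 1 to 3 with livers left out (3 without Het_M_125). For the interaction it was 0, with 1 by DESeq2, 1 by each limma fit and 0 to 1 with livers left out (1 without KO_F_123).

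With near-identical genes summed, the sum had the opposite sign to Cyp4a31 in females (-0.075), and to Cyp4a32 in males (0.78), over both sexes (0.35) and between the sexes in Het (-0.63). The trio sum follows Cyp4a10, so its sign cannot show the direction of Cyp4a31 or Cyp4a32. The sum of the pair had the opposite sign to Cyp4a12b over both sexes (-1.13), where limma on log2(TPM + 1) gave -0.31 for Cyp4a12b itself. The limma fits gave -0.024 and -0.025 for Cyp4f15 between the sexes in Het, and library size alone gave 0.017 for Cyp4a14 between the sexes in KO. With livers left out, signs turned within these ranges for KO against Het: Cyp4a10 in females -0.41 to 0.25, the trio sum in females -0.40 to 0.25, Cyp4a12a in females -0.45 to 2.99, and the summed Cyp4a12 pair over both sexes -1.54 to 0.24. Between the sexes in Het they were -0.28 to 0.050 for Cyp4f14 and -0.014 to 0.30 for Cyp4f15. Between the sexes in KO they were -0.13 to 0.55 for Cyp4a10, -0.12 to 0.55 for the trio sum, -0.35 to 0.14 for Cyp4a14 and -0.10 to 0.54 for Cyp4a31. The interaction of Cyp4f15 ranged from -0.13 to 0.22. None of these values was called in the edgeR fit of all livers except Cyp4a32 in males and over both sexes. The causes were not tested. Over all alternatives, 1345 values for members kept direction and side of the threshold, 50 passed it newly, 27 lost it and 32 turned. These counts include the sums and the genes set beside the sum of their set. No paired analysis was possible because the labels give no litter or other link between mice of different groups.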
